A study of Mus musculus with 16 samples.

Results

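The 38 genes described here make up the interferon response and antigen presentation of mouse liver, and were taken by gene symbol from a table of 24082 genes with 1 row kept for each gene identifier. They comprised 15 antiviral effectors, 3 nucleic acid sensors, 4 transcription factors, 6 interferon-inducible GTPases, 6 genes of MHC class I presentation and 4 genes of MHC class II presentation. All 38 were expressed well enough to be tested among 12537 genes. RNA was sequenced from 16 livers, 4 in each of 4 groups. All mice were female C57Bl6/J, aged 9 to 11 weeks, and carried no engineered allele. The groups were pair-fed mice without drug (Pair vehicle), pair-fed mice given iodomethylcholine (Pair IMC), mice on a chronic ethanol diet without drug (EtOH vehicle) and mice on that diet with iodomethylcholine (EtOH IMC). Feeding lasted 25 days on a liquid diet in which ethanol was raised to 6% by volume or replaced by isocaloric maltose dextrin, and IMC, an inhibitor of the gut bacterial enzyme that makes trimethylamine from choline, was mixed in at 0.06% by weight. Food intake differed with IMC in ethanol-fed mice and body weight differed with IMC on both diets, so intake or weight and the drug cannot be told apart.

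Interferons are cytokines, and those of type I are released by cells that sense, among other signals, viral or bacterial nucleic acid. Type I interferons act through a receptor, JAK kinases and a complex containing STAT2 and IRF9 that binds interferon-stimulated response elements, whereas interferon gamma acts through a receptor of its own and induces GTPases, class I presentation and, through the coactivator CIITA, class II presentation. Hepatocytes and the macrophages, endothelial cells and dendritic cells of the liver all carry parts of this programme, and class II is held mainly by the professional antigen-presenting cells.

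Total reads on genes ran from 9632659 to 12601199 per library. Values are normalized counts, that is read counts scaled to a common library size over all 16 libraries, and differences are on the log2(normalized count + 1) scale with the standard error of the limma fit. A gene was called where the Benjamini-Hochberg adjusted p over all 12537 genes was under 0.05. Values of single livers are listed in the order of library number, which was 10, 12, 14 and 16 for Pair vehicle, 2, 4, 6 and 8 for Pair IMC, 1, 3, 5 and 7 for EtOH vehicle and 9, 11, 13 and 15 for EtOH IMC. Numbers 1 to 8 thus held only Pair IMC and EtOH vehicle livers. What the number stands for is not given in the sources used here, and in each contrast of 2 groups the number and the treatment or diet cannot be told apart. The contrasts averaged over both diets or both treatments are balanced over numbers 1 to 8 and 9 to 16. All pair-fed livers had even numbers and all ethanol-fed livers odd ones. Odd or even number and diet therefore cannot be told apart in any ethanol contrast, the averaged one included. In bulk liver RNA, fewer cells of a type and less RNA per cell cannot be told apart.

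Several livers stood apart over the members. Library 12 was the highest Pair vehicle liver for 21 of 38 members, and library 16 for 13 of 38. In the EtOH IMC group, library 11 was the lowest for 28 of 38. Pair IMC libraries 2 and 8 were highest for 16 and 17 members, and libraries 4 and 6 lowest for 16 and 18. Library 16 also had the highest sum over 11 macrophage markers of any liver, 9321 against 3305 to 4850 in the other Pair vehicle livers, and the highest sum over 5 pan-leukocyte markers, 900 against 422 to 618. All 8 hepatocyte markers were detected in every group. Their sums were 1198715 to 1813373 in Pair vehicle, 1646131 to 1796710 in Pair IMC, 1053803 to 1197140 in EtOH vehicle and 1003125 to 1319713 in EtOH IMC. The sums were lower on ethanol without overlap under either treatment, although 1197140 and 1198715 nearly touched. A single marker reached 1485761 reads in a library, so the sums may rest largely on 1 gene. By gene, 3 of 8 were above 0 with ethanol under either treatment, and 0 of 8 were called. The spread between livers was wider for members than for genes at large in 3 of 4 groups. The median SD of the log2 values was 0.25 for members and 0.20 for all genes in Pair vehicle, 0.27 and 0.18 in Pair IMC, 0.11 and 0.16 in EtOH vehicle, and 0.30 and 0.20 in EtOH IMC.

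**Figure D1:**
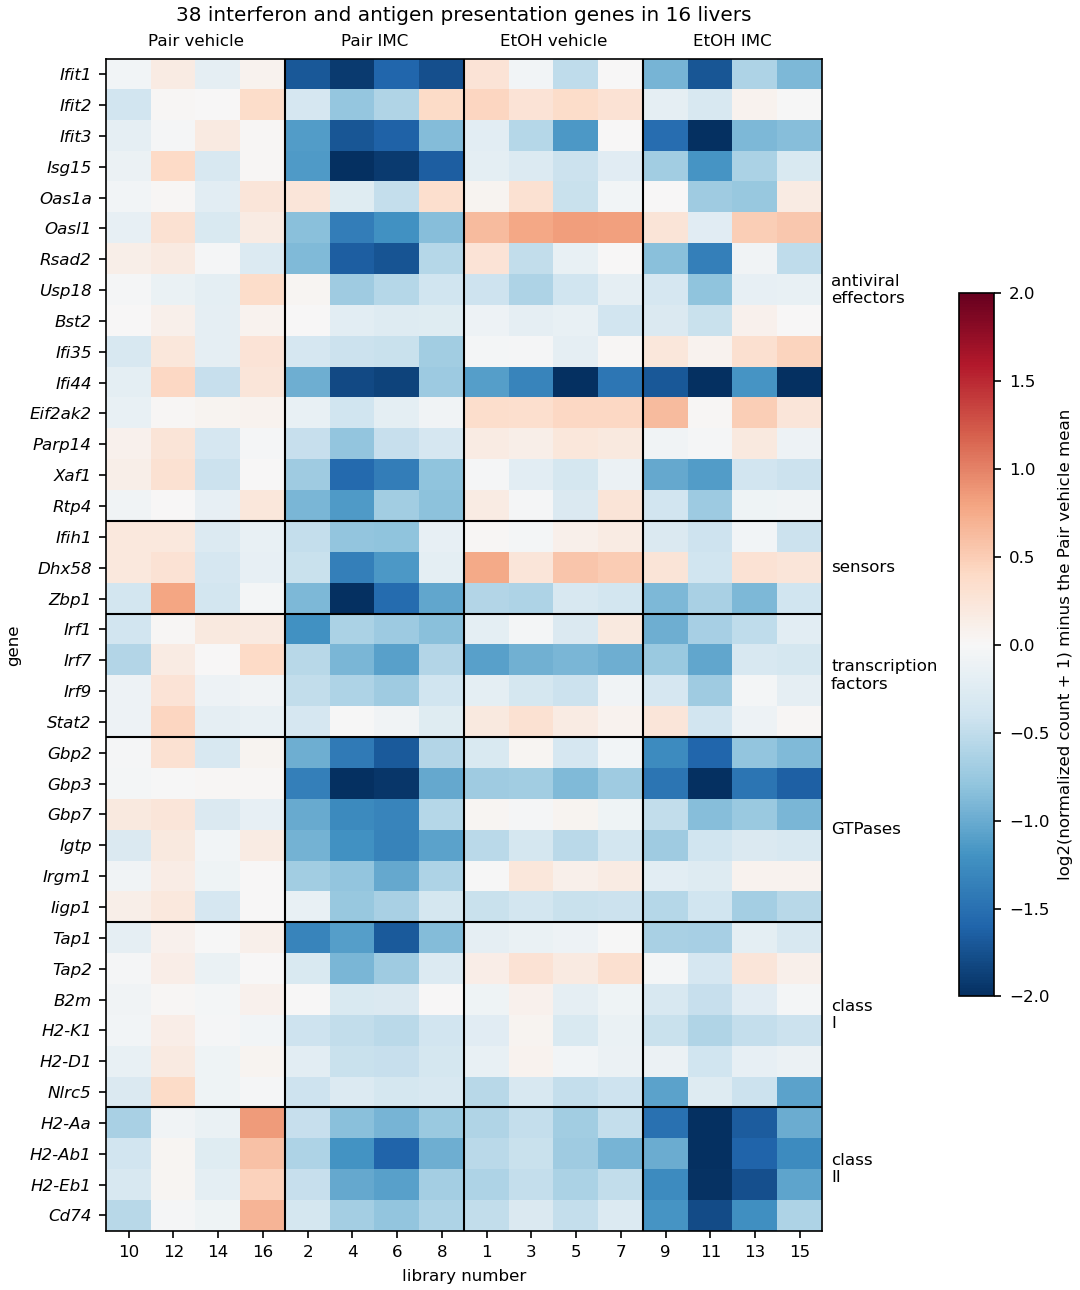
Each row is 1 member and each column 1 liver, ordered by role and by group; colour gives log2(normalized count + 1) minus the mean of the Pair vehicle livers, with values beyond 2 drawn at the end of the scale. The 4 Pair IMC columns are blue for most rows, EtOH IMC library 11 is the lowest of its group for 28 of 38 members, and the 4 class II rows have their lowest means in EtOH IMC.

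Most members had their highest group mean in livers that had received neither ethanol nor IMC. This is an order of means only, and between EtOH vehicle and Pair vehicle 31 of 38 members were not called. The group mean was highest in Pair vehicle for 27 of 38 members, in EtOH vehicle for 10 and in EtOH IMC for 1, Ifi35. It was lowest in Pair IMC for 24 members, in EtOH IMC for 11 and in EtOH vehicle for 3, which were Irf7, Usp18 and Bst2. The 11 lowest in EtOH IMC included all 4 class II genes, B2m, H2-K1 and the class I coactivator Nlrc5. Per kilobase of exon in Pair vehicle livers, B2m was the most abundant at 17673 normalized counts, followed by H2-K1 at 5869, H2-D1 at 2642 and Bst2 at 1416, whereas Ifit2 stood at 16.99 and Oas1a at 17.42. Most of the presentation genes lie in the MHC on chromosome 17 (GRCm38, GENCODE), with Tap1 at chr17:34187553-34197225 and H2-Aa at chr17:34282744-34287823, and Gbp2, Gbp3 and Gbp7 lie together on chromosome 3, with Gbp3 at chr3:142560026-142573209.

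The first comparison asked how livers of pair-fed mice differed with IMC. Of the 38 members, 28 were lower in Pair IMC than in Pair vehicle livers and 0 were higher, beside 5.17% of all tested genes called lower, 4.32% called higher and 9.48% called in either direction. All 38 differences were below 0, as were 50.2% of all genes, and their median was -0.78 against 0.00 over all genes. In 24 of 38 members every Pair IMC liver was below every Pair vehicle liver, and in 0 was every one above, beside 6.94% and 7.38% of all genes. By role, 10 of 15 effectors, 3 of 3 sensors, 3 of 4 transcription factors, 6 of 6 GTPases, 4 of 6 class I genes and 2 of 4 class II genes were called lower. The 28 called differences lay between -1.74 and -0.37. Without Pair IMC library 4 or 6, the 2 lowest livers, 19 members were called, and 18 of the 28 were called under every alternative in which they were tested. Dendritic cell and T and NK cell markers were not called here, but most livers of Pair IMC had lower sums. Over 8 dendritic cell markers the Pair vehicle livers had 207, 181, 215 and 258 and the Pair IMC livers 183, 155, 176 and 178, and over 8 T and NK cell markers 59.1, 46.0, 62.2 and 84.5 and 47.8, 39.9, 40.1 and 34.0, with overlap in both. Their part in the result was not tested. The 10 members not called were Ifit2, Oas1a, Usp18, Bst2, Eif2ak2, Stat2, B2m, Nlrc5, H2-Aa and Cd74, with differences between -0.74 and -0.04.

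The largest differences were among the antiviral effectors. Ifit1, which sequesters foreign RNA with an incompletely methylated cap, stood at 142, 164, 129 and 154 normalized counts in Pair vehicle and at 44.7, 37.997, 48.1 and 42.8 in Pair IMC. The groups were far apart, the highest Pair IMC liver at 48.1 lying well under the lowest Pair vehicle liver at 129. Its difference was -1.74 ± 0.20 (SE), a 3.39-fold lower mean (limma adjusted p = 0.000123). Isg15, a ubiquitin-like protein that is attached to other proteins during infection, stood at 89.2, 128, 77.4 and 98.8 in Pair vehicle and at 43.7, 21.4, 25.1 and 30.2 in Pair IMC. These groups did not overlap either, and the difference was -1.70 ± 0.21 (adjusted p = 0.000203). Ifi44 (-1.34), Ifit3 (-1.33), Rsad2 (-1.21), Xaf1 (-1.11), Oasl1 (-1.07) and Rtp4 (-0.89) also fell. Ifi35 differed by -0.48 (adjusted p = 0.0263), a call lost in the fit of the 8 pair-fed livers alone and without Pair vehicle library 12 or 16 or Pair IMC library 4, 6 or 8. Rsad2 encodes viperin, which halts viral RNA synthesis, and Ifit3 is a partner of IFIT1.

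Of the 2 effectors with the highest mean values, 1 was called. Bst2, the tetherin that holds budding virions at the cell surface, stood at 1277, 1375, 1124 and 1339 in Pair vehicle and at 1281, 1105, 1063 and 1078 in Pair IMC. The groups overlapped and the difference of -0.18 ± 0.11 did not pass the test (adjusted p = 0.345). Parp14, an ADP-ribosyltransferase, stood at 665, 753, 500 and 621 in Pair vehicle and at 454, 364, 456 and 495 in Pair IMC. All 4 Pair IMC livers were below all 4 Pair vehicle livers, although 495 and 500 nearly touched, and the difference was -0.51 ± 0.11 (adjusted p = 0.0106). With only the 8 pair-fed livers in the fit, the adjusted p of Parp14 was 0.0501.

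Among the sensors, Zbp1, a receptor for left-handed nucleic acid that can trigger necroptosis, showed the largest difference at -1.41 ± 0.26 (adjusted p = 0.00364). Ifih1, which encodes the long double-stranded RNA sensor MDA5, stood at 546, 543, 387 and 426 in Pair vehicle and at 337, 273, 269 and 421 in Pair IMC. Library 8 of Pair IMC, at 421, lay within the range of the vehicle livers. The difference was -0.56 ± 0.14 (adjusted p = 0.0209). Dhx58, whose product LGP2 modulates MDA5, stood at 135, 144, 92.7 and 104 in Pair vehicle and at 85.4, 44.8, 52.1 and 102 in Pair IMC. These groups also overlapped through library 8, and the call (-0.79 ± 0.23, adjusted p = 0.0406) was lost under 11 of 28 alternatives, among them leaving out Pair vehicle library 10 or 12, Pair IMC library 4 or 6 or EtOH vehicle library 5 or 7. Leaving out Pair vehicle library 10 or 12 or Pair IMC library 4 or 6 likewise ended the call of Ifih1.

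Of the transcription factors, Irf1, an early target of interferon gamma, stood at 471, 624, 701 and 693 in Pair vehicle and at 266, 396, 373 and 343 in Pair IMC. No value was shared between the groups, and the difference was -0.85 ± 0.17 (adjusted p = 0.00456). Irf7, the amplifier of type I interferon production, and Irf9, the DNA-binding partner of the STATs, differed by -0.79 ± 0.19 (adjusted p = 0.0152) and -0.55 ± 0.13 (adjusted p = 0.0161), and both calls were lost without Pair IMC library 4 or 6. Stat2 stood at 839, 1207, 794 and 810 in Pair vehicle and at 710, 894, 860 and 760 in Pair IMC. Apart from library 12 at 1207, the Pair vehicle livers lay within the range of the Pair IMC livers, and the difference of -0.16 ± 0.14 did not pass the test (adjusted p = 0.491).

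All 6 GTPases, which attack the membranes of intracellular parasites and bacteria, were lower with IMC in pair-fed mice. Igtp stood at 528, 742, 623 and 724 in Pair vehicle and at 335, 280, 258 and 307 in Pair IMC. The lowest vehicle liver was well above the highest IMC liver, and the difference of -1.14 ± 0.12 had the smallest adjusted p of any member (5.91e-05). Igtp (chr11:58199556-58207591) overlaps another GTPase gene, Irgm2 (chr11:58199618-58222782), on the same strand. Reads shared between Igtp and Irgm2 may have been divided or dropped in counting. Gbp3 stood at 339, 344, 356 and 354 in Pair vehicle and at 134, 85.7, 89.2 and 170 in Pair IMC. The Pair vehicle livers were nearly identical, with the smallest SD of any member in that group (0.03 on the log2 scale), and the difference was -1.59 ± 0.18 (adjusted p = 0.000108). Irgm1, a regulator of the other immunity-related GTPases, stood at 800, 928, 790 and 844 in Pair vehicle and at 519, 487, 410 and 547 in Pair IMC. Its groups were again separate, with a difference of -0.78 ± 0.10 (adjusted p = 0.000279). Gbp2 (-1.17) and Gbp7 (-1.04) were lower as well. Iigp1, by far the most abundant GTPase here, stood at 5479, 5861, 3990 and 5092 in Pair vehicle and at 4549, 3002, 3208 and 3961 in Pair IMC. The groups overlapped through libraries 14 and 2, and the call of Iigp1 (-0.48 ± 0.13, adjusted p = 0.0250) was lost without Pair vehicle library 10 or 12 or Pair IMC library 4 or 6.

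In class I presentation, both transporter subunits and both heavy chains were lower, and the light chain was not called. Tap1, a subunit of the transporter that brings peptides into the endoplasmic reticulum, stood at 264, 320, 298 and 323 in Pair vehicle and at 120, 139, 93.2 and 164 in Pair IMC. The groups were separate, with a difference of -1.24 ± 0.15 (adjusted p = 0.000127). Its partner subunit gene Tap2 differed by -0.55 ± 0.14 (adjusted p = 0.0188), and this call was lost without Pair vehicle library 12 or Pair IMC library 4 or 6. H2-K1, a class I heavy chain, stood at 16503, 18877, 17029 and 16568 in Pair vehicle and at 12945, 12180, 11817 and 13175 in Pair IMC. All 4 IMC livers were below all 4 vehicle livers, at -0.46 ± 0.09 (adjusted p = 0.00637), a 1.38-fold lower mean. H2-D1, the other heavy chain, fell by 0.37 on the log2 scale (adjusted p = 0.0224), and like Tap2 was not called without Pair vehicle library 12 or Pair IMC library 4 or 6. B2m, the invariant light chain of every class I molecule, stood at 14389, 15469, 14769 and 16168 in Pair vehicle and at 15270, 12339, 12418 and 15266 in Pair IMC. The groups overlapped and the difference of -0.14 ± 0.11 did not pass the test (adjusted p = 0.441). H2-K1, H2-D1 and other class I heavy chains are close in sequence, so reads shared between them may have been divided or dropped in counting.

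**Figure D2:**
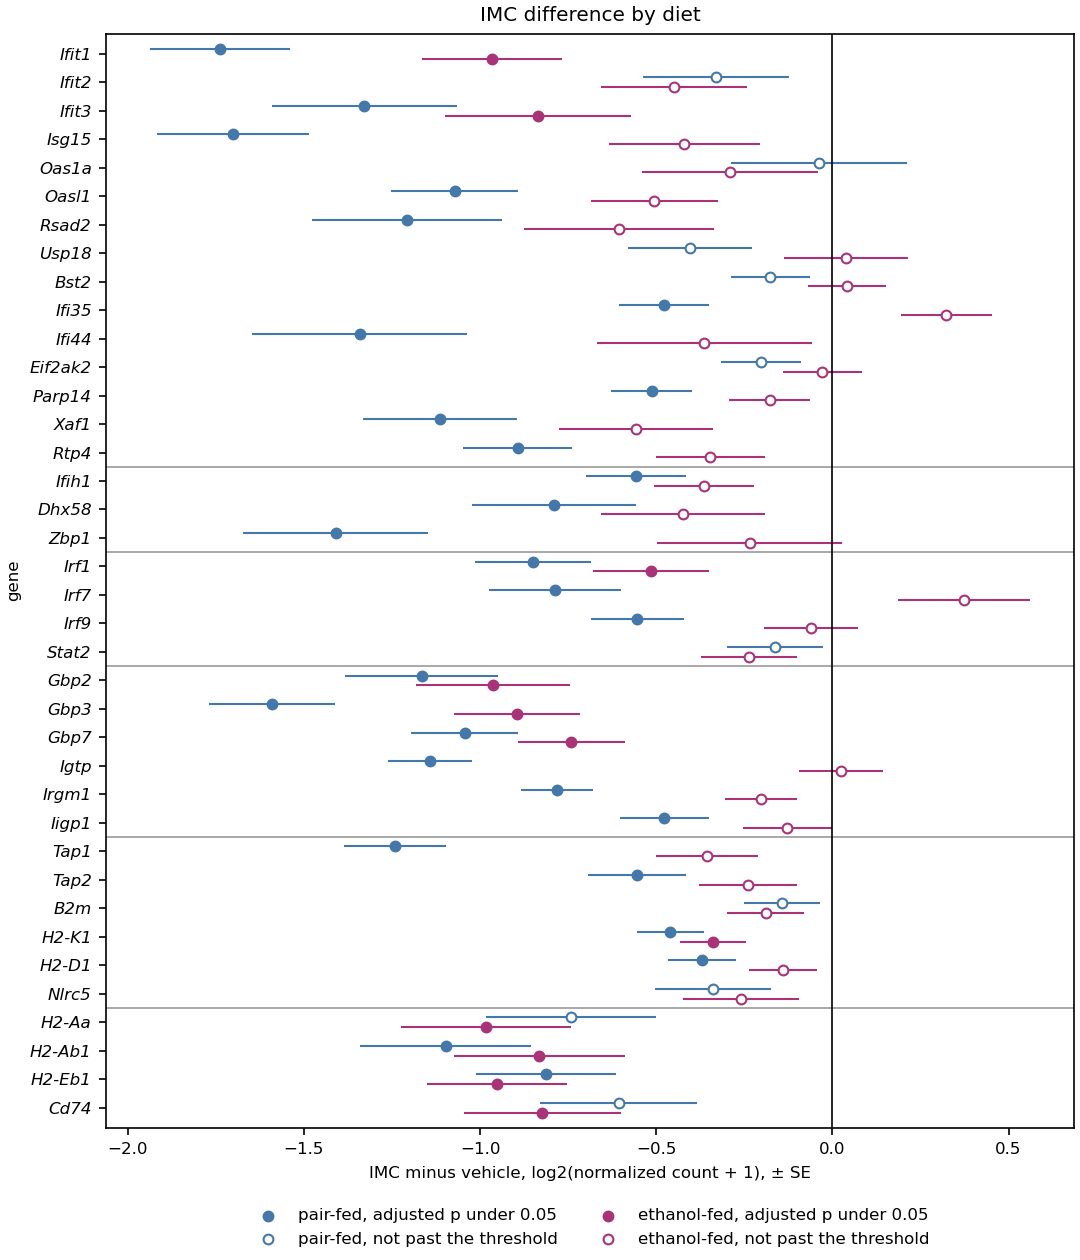
Points give the IMC minus vehicle difference of each member in log2(normalized count + 1) with its standard error, in pair-fed (blue) and ethanol-fed (purple) mice with 4 livers per group; filled points have an adjusted p under 0.05, and grey lines separate the roles in the order effectors, sensors, transcription factors, GTPases, class I and class II. All 38 blue points lie left of 0, and most purple points lie nearer to 0 than the blue ones, the exceptions being H2-Aa, H2-Eb1, Cd74, Ifit2, Oas1a, Stat2 and B2m.

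The start regions of the members with the smallest adjusted p in this comparison were examined because these genes moved together and interferon targets often carry known elements there. RefSeq windows of 300 bases around annotated starts (GRCm38.p6) are shown for 6 members, in the direction of transcription, with capitals marking matches on either strand to the interferon-stimulated response element core (GAAA, any 2 bases, GAAA), which binds IRF-containing complexes, or to the gamma-activated site TTCNNNGAA, which binds STAT dimers. Neighbouring matches can overlap, as in Isg15.
Igtp, chr11:58199306-58199605, plus strand: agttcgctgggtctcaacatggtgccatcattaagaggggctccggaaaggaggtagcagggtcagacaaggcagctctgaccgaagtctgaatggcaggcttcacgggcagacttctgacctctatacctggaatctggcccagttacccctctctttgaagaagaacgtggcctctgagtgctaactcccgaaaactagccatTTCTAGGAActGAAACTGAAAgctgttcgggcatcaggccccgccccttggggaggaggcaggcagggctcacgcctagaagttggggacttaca
Gbp3, chr3:142559794-142560093, plus strand: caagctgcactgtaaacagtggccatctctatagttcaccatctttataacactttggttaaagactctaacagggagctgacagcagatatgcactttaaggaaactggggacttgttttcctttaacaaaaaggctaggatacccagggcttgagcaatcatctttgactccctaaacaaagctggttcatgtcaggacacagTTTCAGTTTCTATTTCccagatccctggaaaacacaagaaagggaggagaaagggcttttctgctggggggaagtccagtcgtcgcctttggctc
Ifit1, chr19:34640639-34640938, plus strand: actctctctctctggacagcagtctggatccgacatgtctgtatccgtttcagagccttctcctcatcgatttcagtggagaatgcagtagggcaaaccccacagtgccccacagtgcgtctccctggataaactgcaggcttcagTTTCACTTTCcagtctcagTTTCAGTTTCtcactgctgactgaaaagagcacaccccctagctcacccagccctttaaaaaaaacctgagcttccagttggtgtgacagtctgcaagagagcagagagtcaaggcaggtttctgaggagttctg
Isg15, chr4:156200769-156201068, minus strand: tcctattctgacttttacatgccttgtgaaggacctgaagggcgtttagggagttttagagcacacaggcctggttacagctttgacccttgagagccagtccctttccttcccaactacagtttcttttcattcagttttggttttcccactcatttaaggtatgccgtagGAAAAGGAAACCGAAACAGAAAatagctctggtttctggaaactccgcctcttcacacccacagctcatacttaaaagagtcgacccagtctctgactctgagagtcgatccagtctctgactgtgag
Irgm1, chr11:48871371-48871670, minus strand: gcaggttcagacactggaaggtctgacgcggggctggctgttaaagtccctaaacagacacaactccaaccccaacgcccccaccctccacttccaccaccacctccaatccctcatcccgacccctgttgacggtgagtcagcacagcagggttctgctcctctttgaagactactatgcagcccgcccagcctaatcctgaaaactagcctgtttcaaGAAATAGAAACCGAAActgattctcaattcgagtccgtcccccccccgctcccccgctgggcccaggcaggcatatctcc
Tap1, chr17:34187306-34187605, plus strand: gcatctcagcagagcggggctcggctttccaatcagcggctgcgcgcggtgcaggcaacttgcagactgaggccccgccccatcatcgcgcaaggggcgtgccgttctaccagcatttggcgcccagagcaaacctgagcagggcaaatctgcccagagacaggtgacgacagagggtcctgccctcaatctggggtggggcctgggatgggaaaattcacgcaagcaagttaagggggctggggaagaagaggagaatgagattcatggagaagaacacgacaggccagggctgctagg
The Igtp window held 1 gamma-activated site and 1 response element core side by side upstream of the start. The Ifit1 window held 2 cores, the Gbp3 window 2, the Irgm1 window 2 and the Isg15 window 3 in an uninterrupted run. A second annotated start of Gbp3 had neither motif. The Tap1 window had no match to either and held 1 CCAAT box. Of the 28 members with a window in the RefSeq table, 15 (53.6%) held at least 1 response element core, against 1079 of 27025 genes (3.99%). The core was present in 5 of 5 GTPases, 7 of 12 effectors, 1 of 4 class I genes and 0 of 2 class II genes. The gamma-activated site was found in 8 of 28 members (28.6%) and in 9.55% of all genes. The CCAAT box, a general promoter element that is part of MHC promoters, was found in 14 of 28 members (50%) and in 41.1% of all genes, and was present in 4 of 4 class I and 2 of 2 class II genes. The members were chosen as interferon and presentation genes, and interferon targets often carry such elements. The higher shares can thus follow from the choice of genes and are no test of the IMC result. These are letter matches only, and Oas1a and Bst2, which carry 2 cores each, were not called in any contrast.

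The second comparison asked how livers of ethanol-fed mice differed with IMC. Here 11 of 38 members were lower in EtOH IMC than in EtOH vehicle livers and 0 were higher, beside 11.1% of all genes called lower, 10.4% called higher and 21.5% called in either direction. The median difference was -0.35, with 33 of 38 below 0 against 50.2% of all genes. In 14 members every EtOH IMC liver was below every EtOH vehicle liver, and in 1, Ifi35, every one was above, beside 12.9% and 12.3% of all genes. The calls fell on 2 of 15 effectors, 0 of 3 sensors, 1 of 4 transcription factors, 3 of 6 GTPases, 1 of 6 class I genes and 4 of 4 class II genes. Called differences lay between -0.98 and -0.34. Without EtOH vehicle library 3 the count was 7. It was 16 with only the 8 ethanol-fed livers in the fit, Ifi35 then being called higher.

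The guanylate-binding proteins and Ifit1 were again lower. Gbp3 stood at 212, 215, 187 and 212 normalized counts in EtOH vehicle and at 127, 83.0, 126 and 112 in EtOH IMC. The groups were separate, with a difference of -0.90 ± 0.18 (adjusted p = 0.00217). Gbp7 stood at 410, 395, 415 and 376 in EtOH vehicle and at 285, 221, 240 and 213 in EtOH IMC. It fell by 0.74 on the log2 scale with no overlap (SE 0.15, adjusted p = 0.00264). Ifit1 stood at 178, 141, 103 and 147 in EtOH vehicle and at 76.6, 44.1, 95.6 and 78.5 in EtOH IMC. The lowest vehicle liver, at 103, was just above the highest IMC liver, and the difference was -0.97 ± 0.20 (adjusted p = 0.00271). Gbp2 (-0.96), Ifit3 (-0.84), Irf1 (-0.51) and H2-K1 (-0.34) were also called. The calls of Ifit3 and Irf1 were each lost under 6 alternatives. For Ifit3 these included leaving out EtOH vehicle library 1, 3 or 7 or EtOH IMC library 9 or 11, and for Irf1 leaving out EtOH vehicle library 3 or 7 or EtOH IMC library 9, 11 or 13. The call of H2-K1 was lost without EtOH vehicle library 3.

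All 4 MHC class II genes were lower in this comparison. H2-Aa, the alpha chain of the class II molecule I-A, stood at 271, 295, 254 and 295 in EtOH vehicle and at 146, 98.3, 129 and 207 in EtOH IMC. Every EtOH IMC liver was lower, and the difference was -0.98 ± 0.24 (adjusted p = 0.00796). Cd74, the invariant chain that guides class II molecules to the endosome, stood at 434, 501, 438 and 509 in EtOH vehicle and at 269, 176, 260 and 399 in EtOH IMC. Again no liver overlapped, with a difference of -0.82 ± 0.22 (adjusted p = 0.0143). H2-Eb1, a beta chain, stood at 167, 184, 164 and 181 in EtOH vehicle and at 107, 64.4, 74.7 and 123 in EtOH IMC. Its difference was -0.95 ± 0.20 without overlap (adjusted p = 0.00285). H2-Ab1, the beta chain that pairs with H2-Aa, was lower by -0.83 ± 0.24 (adjusted p = 0.0216). EtOH IMC library 11 was the lowest of its group for all 4. Without it, the differences were -0.81 for H2-Aa, -0.63 for Cd74, -0.80 for H2-Eb1 and -0.62 for H2-Ab1, and the adjusted p was 0.0289, 0.0497, 0.00992 and 0.0740, so that only the call of H2-Ab1 was lost. That call was also lost without EtOH vehicle library 1 or 3 or EtOH IMC library 13.

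In pair-fed mice the class II genes pointed the same way with a wider spread. H2-Aa stood at 263, 393, 374 and 744 in Pair vehicle and at 298, 231, 217 and 246 in Pair IMC. Cd74 stood at 415, 604, 575 and 979 in Pair vehicle and at 480, 383, 355 and 401 in Pair IMC. Both overlapped through library 10, both were highest in library 16, and neither was called (H2-Aa -0.74, adjusted p = 0.0608, and Cd74 -0.61, adjusted p = 0.0925). H2-Aa was called under 7 of 28 alternatives, among them edgeR and DESeq2 on whole reads and leaving out Pair vehicle library 10 or EtOH IMC library 11 or 15, and Cd74 under 4 of 28, among them DESeq2 and leaving out Pair vehicle library 10. H2-Ab1 (-1.10 ± 0.24, adjusted p = 0.00996) and H2-Eb1 (-0.81 ± 0.20, adjusted p = 0.0171) were called lower without overlap. Leaving out Pair vehicle library 16 brought H2-Aa to -0.46, Cd74 to -0.38, H2-Ab1 to -0.90 and H2-Eb1 to -0.66, with adjusted p of 0.151, 0.247, 0.0280 and 0.0459. H2-Eb1 was not called without Pair IMC library 4 or 6. The difference between diets in the effect of IMC was between -0.24 and 0.27 for the 4 genes and passed the test for 0 of 4, with limits of 2 SE that reached from -0.92 to 0.95.

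Most lists of leukocyte markers were lower together with the class II genes, and neutrophil markers were not. Summed over 8 dendritic cell markers, EtOH vehicle livers had 187, 223, 202 and 234 normalized counts and EtOH IMC livers 177, 144, 167 and 166, with no overlap. Clec9a and Zbtb46 supplied most of that sum, and of the 3 markers tested, Itgax (CD11c) was called lower, from a mean of 22.01 to one of 4.78 (-1.96, adjusted p = 0.000453). In EtOH IMC livers 3 reads are worth 2.54 to 2.99 normalized counts, so the size of the Itgax difference is not well fixed. The other 2 tested dendritic markers were at -0.55 and -0.14 and were not called. Over 8 T and NK cell markers the sums were 30.5 to 46.6 in EtOH vehicle and 20.3 to 27.4 in EtOH IMC, and over 7 B cell markers 28.9 to 54.7 and 13.6 to 33.1. Of 5 pan-leukocyte markers, Ptprc (CD45, -0.77, adjusted p = 0.00632) and Coro1a (-0.58, adjusted p = 0.0379) were called lower, and the sums were 562 to 720 and 364 to 577. Of 11 macrophage markers, 0 were called in either IMC comparison, although 10 of 11 were below 0 in ethanol-fed mice (median -0.24), with sums of 5405 to 7295 in EtOH vehicle and 3951 to 6258 in EtOH IMC. Of 6 neutrophil markers 2 were tested, and both were above 0 in ethanol-fed mice (median 0.68), with 0 called. Sums over the 6 were 12.6 to 29.9 in EtOH vehicle and 19.8 to 39.0 in EtOH IMC, with at most 28 reads for a marker in any library. In pair-fed mice 0 of 3 dendritic, 0 of 5 pan-leukocyte and 0 of 11 macrophage markers were called. The part of these markers in the class II result was not tested.

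**Figure D3:**
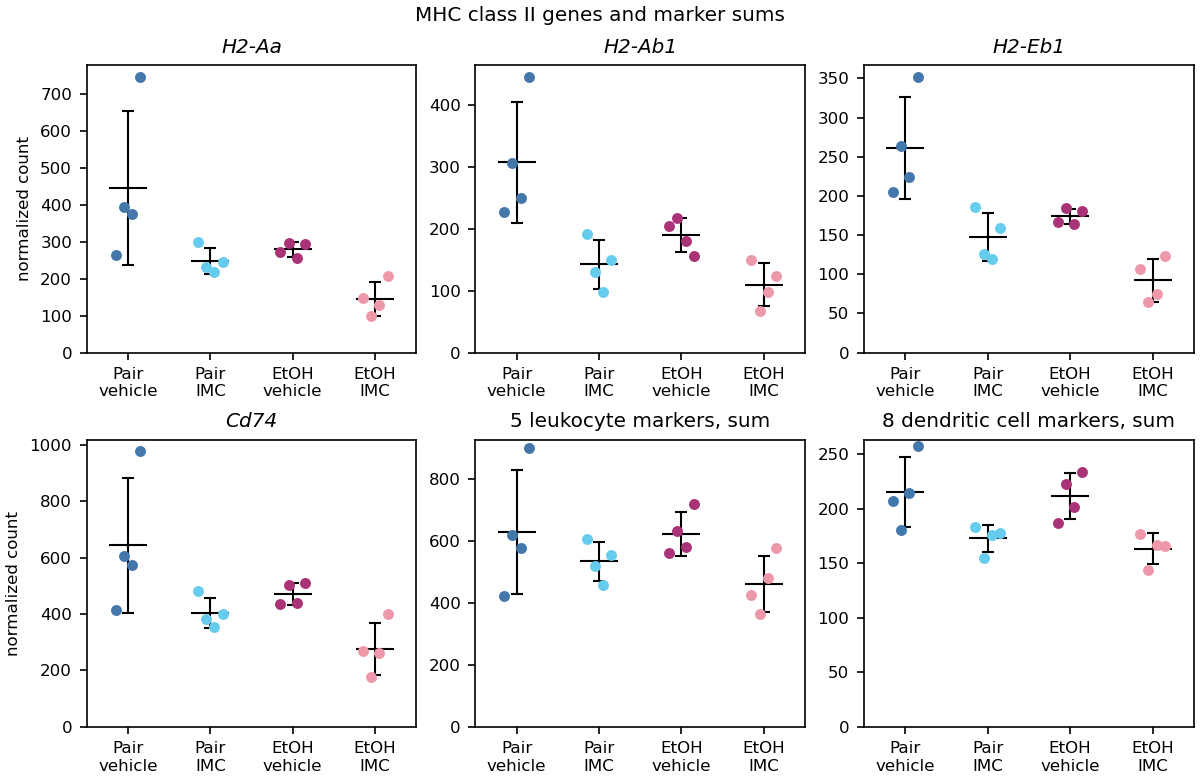
Dots are single livers, and horizontal bars with whiskers the mean and SD of 4 livers, in normalized counts, for the 4 class II genes and for the summed pan-leukocyte and dendritic cell markers. EtOH IMC livers lie below EtOH vehicle livers in all 4 genes and in the dendritic sum, and Pair vehicle library 16 is the highest point in every panel.

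Over both diets together, which balances library numbers, 28 of 38 members were lower with IMC and 0 higher, beside 14% and 14.1% of all genes, or 28.1% in either direction. The median difference was -0.58, and all 38 were below 0, as were 51% of all genes. Of these 28 calls, 27 held under every alternative in which the gene was tested, the exception being H2-D1. The averaged difference was largest for Ifit1 (-1.35 ± 0.14, adjusted p = 6.61e-06), Gbp3 (-1.24 ± 0.13, adjusted p = 4.89e-06) and Ifit3 (-1.08 ± 0.19, adjusted p = 0.000428). Called lower in each diet on its own were 9 members, namely Gbp2, Gbp3, Gbp7, H2-Ab1, H2-Eb1, H2-K1, Ifit1, Ifit3 and Irf1. A further 19 passed in pair-fed mice only, 2 (H2-Aa and Cd74, both called in pair-fed mice too under some alternatives) in ethanol-fed mice only, and 8 in neither. Of the 19, Oasl1 was called in ethanol-fed mice under 11 of 27 alternatives. The shares of all genes called in both diets, in only 1 or in neither were not counted. These joint counts therefore only describe the members and cannot be set against genes at large. In the same averaged contrast 2 of 3 dendritic and 1 of 5 pan-leukocyte markers were lower, and their part was not tested.

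A call in 1 diet and not in the other does not show a difference between diets, so the difference itself was tested. The effect of IMC was less negative, or reversed in sign, in ethanol-fed mice for 5 of 38 members, Igtp, Ifi35, Irf7, Tap1 and Isg15, beside 0.319% of all genes called in that direction, and 0 members were called in the other (0.79% of all genes, and 1.11% in either). In 31 of 38 members the difference was above 0 and in 7 below, whereas 50.2% of all genes were below 0. The median was 0.34 against 0.00 over all genes. At an unadjusted p under 0.05 in the limma fit there were 13 members and 1913 genes in all. Over the 119 genes of the wider pathway described at the end, 68 were above 0 and 51 below, with a median of 0.08, 3 called higher and 1 lower. Igtp had the firmest difference, 1.17 ± 0.17 (adjusted p = 0.00242). It stood at 446, 509, 444 and 500 in EtOH vehicle and at 397, 493, 529 and 522 in EtOH IMC, so that the 2 ethanol-fed groups overlapped fully while the pair-fed groups were 2.22-fold apart. Only the call of Igtp held under every alternative, and the caution on reads shared with Irgm2 applies here too.

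For the other 4 the test was passed narrowly. Ifi35, an interferon-induced leucine zipper protein, stood at 200.6, 293, 221 and 302 in Pair vehicle, 197, 186, 183 and 154 in Pair IMC, 243, 245, 221 and 253 in EtOH vehicle and 293, 263, 314 and 340 in EtOH IMC. The IMC livers were the lower group on the pair diet and the higher group on ethanol, without overlap in either, and the difference was 0.80 ± 0.18 (adjusted p = 0.0433). Irf7 stood at 343, 580, 520 and 681 in Pair vehicle, 352, 272, 242 and 343 in Pair IMC, 241, 265, 272 and 261 in EtOH vehicle and 307, 251, 414 and 402 in EtOH IMC. Its values were close together in EtOH vehicle and wide in Pair vehicle, and the difference was 1.16 ± 0.27 (adjusted p = 0.0450). Tap1 stood at 265, 275, 281 and 300 in EtOH vehicle and at 191, 190, 261 and 240 in EtOH IMC, which gave a difference of 0.89 ± 0.21 (adjusted p = 0.0471). Isg15 stood at 84.3, 80.2, 71.2 and 82.7 in EtOH vehicle and at 59.4, 42.4, 61.7 and 78.5 in EtOH IMC, which gave 1.28 ± 0.30 (adjusted p = 0.0497). Both of these had a smaller loss on ethanol than on the pair diet. These 4 calls were each lost under 15 to 17 alternatives, including leaving out any 1 of Pair vehicle 12 or 16, Pair IMC 6, EtOH vehicle 1, 3, 5 or 7 or EtOH IMC 13 or 15, with adjusted p up to 0.103. Leaving out Pair vehicle 10 or 14, Pair IMC 2, 4 or 8 or EtOH IMC 9 ended some of them, and without EtOH IMC library 11 the number of members called was 7. This contrast sets libraries 9 to 16 against libraries 1 to 8, so library number and the difference between diets cannot be told apart.

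**Figure D4:**
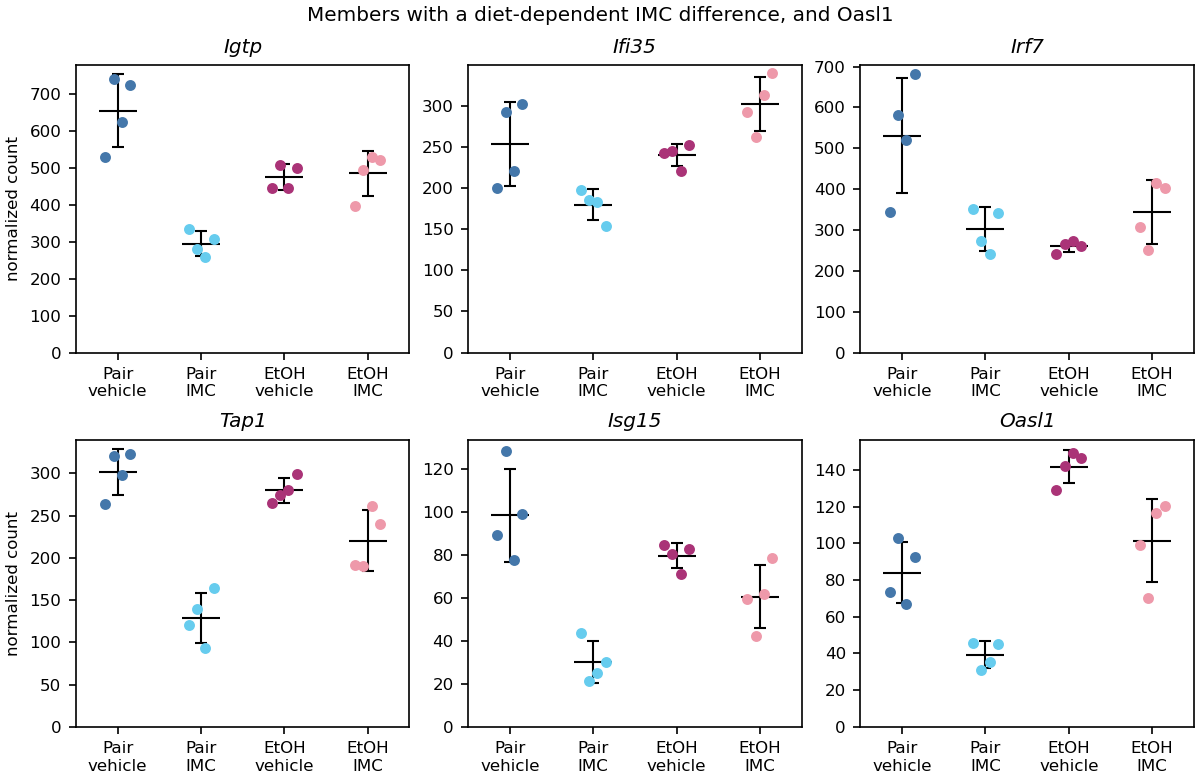
Dots are single livers, and bars with whiskers the mean and SD of 4 livers, in normalized counts, for the 5 members whose IMC effect differed between diets and for Oasl1. Pair IMC livers are the lowest group for all but Irf7, whereas EtOH IMC livers overlap EtOH vehicle livers for Igtp and lie above them for Ifi35.

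The third comparison asked how ethanol-fed livers differed without IMC. Of 38 members, 2 were higher and 5 lower in EtOH vehicle than in Pair vehicle livers, beside 6.33% of all genes called higher, 5.54% called lower and 11.9% called in either direction. The median difference was -0.13, with 28 of 38 below 0 against 50.9% of all genes. In 2 members every EtOH vehicle liver was above, and in 8 below, every Pair vehicle liver (9.92% and 9.07% of all genes). On the values as deposited, which carry a median shift of 0.19 (log2) between the diets, the split was 6 higher and 3 lower. The count of 7 became 4 without Pair vehicle library 12 or EtOH vehicle library 1 or 5.

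Irf7 and Ifi44 fell most with ethanol. Irf7, whose 16 values are given above, was 2.04-fold lower in EtOH vehicle than in Pair vehicle without overlap (-0.99 ± 0.19, adjusted p = 0.00327). Ifi44, an interferon-induced effector, stood at 97.0, 149, 81.0 and 131 in Pair vehicle, 55.9, 31.2, 30.1 and 66.8 in Pair IMC, 51.1, 43.8, 26.3 and 40.3 in EtOH vehicle and 33.6, 27.1, 48.8 and 18.9 in EtOH IMC. Pair vehicle livers were above all 12 others, and the ethanol difference was -1.48 ± 0.31 (adjusted p = 0.00522). Gbp3 was lower by -0.75 ± 0.18 (adjusted p = 0.0121), Igtp by -0.45 ± 0.12 (adjusted p = 0.0209) and Iigp1 by -0.42 ± 0.13 (adjusted p = 0.0381). Iigp1 stood at 3719, 3913, 3709 and 3756 in EtOH vehicle and at 3406, 3851, 3164 and 3427 in EtOH IMC. The calls of Igtp and Iigp1 were lost on the values as deposited and without Pair vehicle library 12 or 16 or EtOH vehicle library 1 or 5, and that of Iigp1 also without Pair vehicle library 10 or EtOH vehicle library 3 or 7.

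Oasl1 and Eif2ak2 rose. Oasl1, which in mouse restrains translation of IRF7, stood at 73.6, 103, 66.9 and 92.7 in Pair vehicle and at 129, 142, 149 and 146 in EtOH vehicle. Every ethanol liver was higher, at 0.77 ± 0.18 (adjusted p = 0.0117). Eif2ak2, the kinase PKR that stops protein synthesis on binding double-stranded RNA, rose by 0.38 ± 0.11 (adjusted p = 0.0378), a call lost under 8 alternatives. These included leaving out Pair vehicle library 10, 12 or 14 or EtOH vehicle library 1, 3, 5 or 7.

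The same comparison was made between mice given IMC. Of 38 members, 12 were higher and 2 lower in EtOH IMC than in Pair IMC livers, beside 7.86% of all genes called higher, 8.57% called lower and 16.4% called in either direction. The median difference was 0.23, with 11 of 38 below 0 against 49.6% of all genes. In 7 members every EtOH IMC liver was above, and in 1 below, every Pair IMC liver (9.35% and 9.83% of all genes). On the values as deposited the split was 18 higher and 0 lower. This comparison shares its Pair IMC and EtOH IMC livers with the IMC comparisons above, so its values restate theirs from another side.

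Oasl1 rose again, from 45.8, 31.2, 35.1 and 45.4 in Pair IMC to 99.0, 70.3, 117 and 120 in EtOH IMC. The groups were separate and the mean was 2.58-fold higher (1.33 ± 0.18, adjusted p = 0.000189). Irgm1, at 519, 487, 410 and 547 in Pair IMC, stood at 724, 699, 883 and 885 in EtOH IMC. Its level was thus close to that of EtOH vehicle livers, at 839, 981, 897 and 940, and the ethanol difference under IMC was 0.70 ± 0.10 (adjusted p = 0.000293). Igtp (0.71 ± 0.12, adjusted p = 0.000809) and Ifi35 (0.74 ± 0.13, adjusted p = 0.00110) were higher without overlap, as were Tap1 (0.78), Eif2ak2 (0.55) and Parp14 (0.51). Parp14 stood at 706, 684, 734 and 722 in EtOH vehicle and at 597, 620, 718 and 586 in EtOH IMC. Tap2 (0.55), Rtp4 (0.58), Ifit1 (0.70), Dhx58 (0.88) and Isg15, with a 2.01-fold higher mean, were called higher with overlapping groups. The call of Ifit1 was lost without Pair IMC library 4 or EtOH IMC library 9, 13 or 15, that of Rtp4 without Pair IMC library 4 or EtOH IMC library 13 or 15, and that of Dhx58 without Pair IMC library 6. Dhx58 stood at 199, 138, 173 and 167 in EtOH vehicle and at 139, 88.1, 143 and 138 in EtOH IMC. The 2 members called lower were H2-Aa (-0.81 ± 0.24, adjusted p = 0.0298) and H2-Eb1 (-0.70 ± 0.20, adjusted p = 0.0234), and both calls were lost on the values as deposited and without Pair IMC library 2 or 8 or EtOH IMC library 11 or 13, that of H2-Aa also without EtOH IMC library 9.

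Averaged over both treatments, 9 members were higher and 8 lower with ethanol, beside 12.9% and 13.1% of all genes, or 26.1% in either direction. In all, 17 of 38 were below 0 against 50.4% of all genes. This contrast also sets odd library numbers against even ones. All 4 class II genes were lower, between -0.69 and -0.49, together with Nlrc5 (-0.40), Ifi44 (-0.99), Gbp3 (-0.41) and Irf7 (-0.41). Those higher were Oasl1 (1.05), Dhx58 (0.70), Eif2ak2 (0.46), Irgm1 (0.41), Tap2 (0.39), Parp14 (0.35), Ifi35 (0.34), Tap1 (0.34) and Rtp4 (0.30). Markers of other cells also moved with ethanol. Averaged over treatments, the 1 tested T and NK cell marker (Klrb1c, -0.77), 1 of 3 dendritic markers (Clec9a, -0.51) and 1 of 5 pan-leukocyte markers (Coro1a, -0.45) were lower, and 4 of 8 endothelial markers were higher. Of the hepatocyte markers, 2 of 8 were lower and 1 higher. With IMC, 2 of 5 pan-leukocyte markers were lower on ethanol (median of the 5, -0.43), and without it 0 of 5. The part of these markers in the ethanol results was not tested. On the values as deposited the split was 17 higher and 3 lower, so the direction of small ethanol differences rests on the common scaling. The calls of H2-Ab1, Cd74, Irf7, Gbp3 and Nlrc5 were lost there. That of H2-Ab1 was also lost without Pair vehicle library 16 (-0.43, adjusted p = 0.0630), Pair IMC library 2 or 8, EtOH vehicle library 5 or 7 or EtOH IMC library 11 or 13, and that of Cd74 without Pair IMC library 2, EtOH vehicle library 1 or 5 or EtOH IMC library 11. That of Irf7 was lost without Pair vehicle library 12, 14 or 16, Pair IMC library 2 or 8, EtOH vehicle library 1 or EtOH IMC library 9 or 11, that of Gbp3 without Pair IMC library 2 or EtOH vehicle library 5, and that of Rtp4 under 17 of 27 alternatives.

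The values of the other abundant members in ethanol-fed livers complete the picture. Ifih1 stood at 480, 457, 506 and 528 in EtOH vehicle and at 385, 352, 453 and 347 in EtOH IMC, groups that did not overlap although the test was not passed (-0.36 ± 0.14, adjusted p = 0.0754). Irf1 stood at 538, 600, 504 and 706 in EtOH vehicle and at 311, 389, 430 and 529 in EtOH IMC, and Stat2 at 1030, 1107, 1009 and 944 and at 1063, 686, 838 and 918. Bst2 stood at 1191, 1123, 1147 and 974 in EtOH vehicle and at 1040, 933, 1352 and 1280 in EtOH IMC. H2-K1 stood at 14777, 17904, 13954 and 15749 in EtOH vehicle and at 12660, 11343, 12378 and 12772 in EtOH IMC, and B2m at 14287, 16048, 13362 and 14253 and at 12223, 11073, 12925 and 14749. The H2-K1 groups were separate and those of B2m were not. In all, 6 members, B2m, Bst2, Ifit2, Oas1a, Stat2 and Usp18, were called in 0 of 7 contrasts, a count for which the share of all genes was not taken. Their limits of 2 SE for IMC in pair-fed mice ran from -0.44 to 0.11 for Stat2 and from -0.54 to 0.46 for Oas1a, so changes within those limits are not resolved.

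The rest of the pathway was examined from a list of 153 genes, of which 144 were in the table and 119 were tested. With IMC, 36 of 119 were lower and 0 higher in pair-fed mice, and 29 were lower and 1 higher in ethanol-fed mice, with medians of -0.29 and -0.30, beside 5.17% of all genes lower and 4.32% higher in pair-fed and 11.1% and 10.4% in ethanol-fed mice. The same shares apply to the lists that follow. The ligands were almost silent. Of 16 interferon genes, 14 had 0 reads in all 16 libraries, which allows up to 3 reads or 2.54 to 3.78 normalized counts per library, and Ifng reached at most 5 reads, in Pair vehicle library 16. The receptor genes were expressed throughout. Ifnar1, Ifnar2, Ifngr1 and Ifngr2 had IMC differences of -0.08, -0.03, -0.11 and -0.22 in pair-fed and 0.08, 0.16, 0.12 and 0.06 in ethanol-fed mice, none of them called. They belong to a list of receptor and JAK-STAT genes of which 16 were tested. With IMC, 2 of the 16 were lower in pair-fed mice (lowest difference -0.83) and 1 in ethanol-fed mice, and 0 were higher.

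Among other interferon-stimulated genes, 18 of 58 were lower with IMC in pair-fed mice and 18 of 58 in ethanol-fed mice, and 0 were higher. Cxcl10, a chemokine that draws T cells, had means of 53.8 and 13.4 in Pair vehicle and Pair IMC (-1.95, adjusted p = 0.00255) and 37.0 and 11.3 in EtOH vehicle and EtOH IMC (-1.71, adjusted p = 0.00226). Of 13 other interferon-inducible GTPases, 6 and 3 were lower, among them Gbp10, whose means were 211, 40.9, 87.6 and 13.2 in Pair vehicle, Pair IMC, EtOH vehicle and EtOH IMC. Cxcl10 and Gbp10 were singled out after their values were seen. In the class I pathway, the immunoproteasome genes Psmb8 (-0.67 and -0.44) and Psmb9 (-1.07 and -0.89) were lower in both diets, and 9 and 6 of 22 genes passed. Of 10 other class II pathway genes tested, 1 was lower and 0 higher with IMC in pair-fed mice (median -0.11). In ethanol-fed mice 1 was lower, which was Ciita, and 1 higher (median -0.31). The class II coactivator Ciita had means of 21.9 and 11.3 in pair-fed mice (-0.88, adjusted p = 0.0614) and 21.1 and 10.4 in ethanol-fed mice (-0.97, adjusted p = 0.0240), at most 34 reads in any library.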

How the data were processed

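Liver RNA of 16 mice in 4 groups of 4 was sequenced. The deposited table holds a normalized signal, read counts divided by a size factor. The paper's methods name upper-quantile normalization in edgeR, and whether this gave the deposited factors was not tested. The median ratios of the columns fall into 2 levels, 1 for each diet. Reads had been trimmed and checked with Trim Galore and FastQC and aligned with STAR to mm10, and the counter is not given in the sources used here. Values were whole multiples of 1 read in every library (tolerance 0.01), less securely in EtOH IMC library 15 where 1 read is worth about 1, which gave the reads and 9632659 to 12601199 per library, with counting error only. The labels state paired-end reads and the methods single-end reads.

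All 16 columns were rescaled by a median ratio over 13121 genes. This removed a median shift of 0.19 (log2) between the diets. limma 3.58.1 was fitted to log2(value + 1) of the 12537 genes that reached 10 in 4 or more libraries, as group means with a mean-variance trend over all 16 libraries, two-sided, with Benjamini-Hochberg adjustment and a threshold of 0.05. The script was tested on simulated data. No design pairs the libraries, since each number occurs once. Replicates differed by more than counting noise in all pairs (chi-square per gene 4.81 to 36.3). Labels do not say which livers came from the same litter or cage. The paper reports diet intake by cage with several mice in each, so livers of a group may not be independent units. The p-values treat each liver as a unit and set group differences against the spread between livers within groups.

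Members and gene lists were chosen with earlier results of these data known. Values are given in full for the 4 members with the smallest adjusted p in each contrast of 2 groups and the 2 most abundant of each role. Isg15, Irf7, H2-Ab1, H2-Eb1 and further names were added because a result turned on them. Alternatives were other pseudocounts, filters and scalings, fits without the trend or on single comparisons, count models of the recovered reads (DESeq2 1.42.0 and edgeR 4.0.16), and omission of single livers. Gene positions and exon lengths are from GENCODE on GRCm38, and promoter windows from RefSeq on GRCm38.p6, where 10 members had none. A gene of the wider pathway list is not reported here.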

Additional observations from a re-analysis of the deposited data

Results flagged for a closer look

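In 4 of 152 groups of 4 livers, 1 liver lay far from the other 3 by Dixon's criterion, which chance alone meets in about 1 in 20 groups. Irf9 was at 530 in Pair vehicle library 12 against 408 to 415 in the other 3. Stat2 was at 1207 in the same library against 794 to 839. Dhx58 was at 88.1 in EtOH IMC library 11 against 138 to 143. Gbp3 was at 187 in EtOH vehicle library 5 against 212 to 215.

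The effect of IMC differed between the diets, by the interaction in the limma fit, for 5 members. On the log2 scale, ethanol-fed minus pair-fed, the difference was 1.17 for Igtp (adjusted p = 0.00242), 0.80 for Ifi35 (adjusted p = 0.0433), 1.16 for Irf7 (adjusted p = 0.0450), 0.89 for Tap1 (adjusted p = 0.0471) and 1.28 for Isg15 (adjusted p = 0.0497).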

How the results depend on the processing

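No call reversed its sign under any alternative. The count of members whose IMC effect differed between diets moved from 5 to 1 with no filter on low values, to 3 under quantile normalization, to 1 without the mean-variance trend and to 1 with edgeR on the whole reads of 15 libraries. The count for ethanol in vehicle mice moved from 7 to 11 with DESeq2 on the whole reads of 15 libraries. Both 15-library fits, without EtOH IMC library 15, were chosen after seeing the data. Other alternatives kept the 7 counts within 1.5 times. With single libraries left out, the counts ranged from 19 to 29 for IMC in pair-fed mice, from 7 to 12 for IMC in ethanol-fed mice, from 1 to 7 for the difference between diets, from 28 to 30 for IMC averaged over diets, from 4 to 7 for ethanol in vehicle mice, from 10 to 15 for ethanol in IMC mice and from 13 to 18 for ethanol averaged over treatments. The count of 7 for IMC in ethanol-fed mice came without EtOH vehicle library 3. That of 4 for ethanol in vehicle mice came without Pair vehicle library 12, EtOH vehicle library 1 or EtOH vehicle library 5. The cause was not tested. Of the members called in these 7 contrasts, 18 of 28, 7 of 11, 1 of 5, 27 of 28, 4 of 7, 9 of 14 and 11 of 17 were called under every alternative in which they were tested. No paired analysis was possible because each library number occurs in only 1 group. Depth limited the ligands, Ifng and Ciita, which had few reads.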
